A study of Mus musculus with 4 samples.

Results

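The genes described here are 10 components and direct targets of the hypoxia-inducible factor (HIF) pathway: Hif1a, Epas1, Arnt, Egln1, Egln2, Egln3, Vhl, Bnip3, Ndrg1 and Pdk1. They were taken by symbol from a table of 45703 mouse genes, and 10 of 10 symbols were found, each with 1 entry. Poly-A RNA was sequenced from 4 cultures of astrocytes, which the submitters describe as biological replicates in a profile of calcium signalling components. The cultures form a single group without a treatment, a genotype contrast or a time course, so no comparison between conditions exists. The starting tissue was frontal cortex of outbred CD-1 mice aged 4 postnatal days. The cells grew at 37 °C and 5% CO2 in DMEM/F12 with 10% fetal calf serum, 5% horse serum, B27, 10 ng/ml EGF and 0.45% glucose. No oxygen level is stated in the labels. After 6 days in vitro the cells were replated, 200000 per dish. They were harvested 3 days after that, following 1 h of serum-free Ham's medium. The labels do not say how many animals went into a culture, their sex, or whether the cultures were prepared separately, so the spread given below is the spread between these 4 libraries and may be technical in part.

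HIF is a transcription factor made of an oxygen-regulated alpha subunit (HIF-1 alpha from Hif1a, or HIF-2 alpha from Epas1) and a partner, ARNT, that does not depend on oxygen. In oxygenated cells the prolyl hydroxylases encoded by Egln1, Egln2 and Egln3 mark the alpha subunit, the VHL protein recognises the mark, and a ubiquitin ligase sends the subunit to the proteasome. When oxygen falls the alpha subunit escapes this route, pairs with ARNT and binds hypoxia response elements near genes for glycolysis, lactate export, mitochondrial turnover and vessel growth. Because this control acts on the protein, the level of Hif1a or Epas1 mRNA is not a measure of HIF activity. Egln3, Bnip3, Ndrg1 and Pdk1 are among the commonly used transcriptional targets, and Egln1 is both a sensor and a target. Astrocytes are known for high glycolytic capacity and for exporting lactate.

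The libraries held between 37300485 and 42369109 counts, and 14725 genes were expressed, meaning at least 1 count per 1000000 (CPM) in each of the 4 libraries. A single count was worth between 0.0236 and 0.0268 CPM. Cultures 1, 2 and 3 were close to repeats of each other: the chi-square of their counts per degree of freedom lay between 2.1 and 3.17, where sampling noise alone gives about 1. Culture 4 stood apart from them at 39.4 to 41.1. All 10 astrocyte markers examined were expressed. In culture 4, 6 of them were below the mean of the other cultures and 4 were above it. Gfap, at 1498, 1522, 1555 and 780 CPM in cultures 1 to 4, and S100b were the 2 at least 1.5-fold lower there. The 10 markers summed to 7450 to 7629 CPM in cultures 1 to 3 and to 6432 CPM in culture 4. Markers of fibroblasts and microglia were also present, and their summed levels were lower in culture 4. The 6 fibroblast markers summed to 1334 to 1420 CPM in cultures 1 to 3 and to 512 CPM in culture 4. Of the 4 expressed fibroblast markers, 1 was at least 1.5-fold higher in culture 4. The 9 microglia markers summed to 203 to 213 CPM in cultures 1 to 3 against 137 CPM in culture 4. The 8 proliferation markers summed to between 1581 and 1607 CPM in cultures 1 to 3 and to 2076 CPM in culture 4. In bulk RNA, fewer cells of a type and less RNA per cell cannot be told apart. No listed marker was at 0 in all libraries. Cldn5 (endothelial), Mog (oligodendrocyte) and Tmem212 (ependymal) had at most 3 counts in total, but other markers of their lists were expressed. These were 2 of 8 endothelial, 5 of 8 oligodendrocyte lineage and 2 of 5 ependymal markers. The 3 lists summed to 7.98 to 15.1, 1727 to 1847 and 200 to 220 CPM. Mural and neuron markers were present too, with sums of 2026 to 2150 and 392 to 422 CPM.

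The promoter windows of the 3 targets with the widest spread between cultures, Egln3, Bnip3 and Pdk1, and of the sensor Egln1 are printed because the results below turn on these genes. Each window runs 5′ to 3′ on the gene's own strand from 250 bases before to 50 bases after a start site, as given by RefSeq on GRCm38.p6. Capitals mark the core of the hypoxia response element, ACGTG or GCGTG, on either strand, so a core on the opposite strand reads as CACGT or CACGC. The coordinates are chr12:54203825-54204124 (minus strand) for Egln3, chr7:138909457-138909756 (minus) for Bnip3, chr2:71872974-71873273 (plus) for Pdk1 and chr8:124949205-124949504 (minus) for Egln1.
Egln3: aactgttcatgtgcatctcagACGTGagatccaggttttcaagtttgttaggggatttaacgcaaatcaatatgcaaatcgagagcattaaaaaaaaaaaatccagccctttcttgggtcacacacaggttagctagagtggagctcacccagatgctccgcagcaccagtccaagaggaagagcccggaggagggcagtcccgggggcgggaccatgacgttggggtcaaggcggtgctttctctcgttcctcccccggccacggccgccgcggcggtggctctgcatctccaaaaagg
Bnip3: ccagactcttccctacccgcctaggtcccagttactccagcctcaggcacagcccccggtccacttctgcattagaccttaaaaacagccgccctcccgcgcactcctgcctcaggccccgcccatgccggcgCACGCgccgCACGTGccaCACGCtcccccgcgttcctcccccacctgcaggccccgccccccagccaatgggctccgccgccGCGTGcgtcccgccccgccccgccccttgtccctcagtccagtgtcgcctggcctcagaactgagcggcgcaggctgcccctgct
Pdk1: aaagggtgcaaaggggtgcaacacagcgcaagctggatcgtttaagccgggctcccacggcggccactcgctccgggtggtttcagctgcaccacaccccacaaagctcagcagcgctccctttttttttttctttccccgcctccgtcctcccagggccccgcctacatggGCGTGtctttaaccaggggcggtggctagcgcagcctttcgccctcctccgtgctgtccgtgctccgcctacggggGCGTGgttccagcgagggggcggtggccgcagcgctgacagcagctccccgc
Egln1: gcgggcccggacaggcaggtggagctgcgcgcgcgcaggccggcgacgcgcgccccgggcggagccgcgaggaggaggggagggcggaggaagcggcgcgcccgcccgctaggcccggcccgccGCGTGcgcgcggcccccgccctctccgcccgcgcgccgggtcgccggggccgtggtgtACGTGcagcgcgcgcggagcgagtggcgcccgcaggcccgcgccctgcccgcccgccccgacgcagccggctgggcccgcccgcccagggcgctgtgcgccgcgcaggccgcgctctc

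The Egln3 window held 1 core, ACGTG at 229 bases before the start. In the Bnip3 window, matches began at 117, 108, 107, 99 and 35 bases before the start, and the pair at 108 and 107 is the same CACGTG read on both strands, which is also an E-box. Pdk1 had GCGTG at 78 and 2 bases before its start, and Egln1 had GCGTG at 126 and ACGTG at 68 bases before. Windows were at hand for 8 of the 10 genes, with Egln2 and Pdk1 having an additional start each, and 8 of these 10 windows, from 7 genes, held at least 1 core. The same held for 43.8% of all 32851 windows and for 61.2% of the 13725 windows of expressed genes, so a match is common. CACGTG was in 3 of 10 windows, against 7.15% of all windows and 9.62% of those of expressed genes. A match is a description of the letters and not a binding site.

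All 10 genes were expressed, and per length 9 of 10 lay above the median expressed gene, which was at 7.70 reads per kilobase of combined exon length per 1000000 counts (RPKM). The order by mean RPKM (SD, n = 4) was Epas1 at 55.3 ± 8.36, Egln1 at 47.1 ± 5.12, Ndrg1 at 39.3 ± 6.13, Bnip3 at 33.9 ± 7.58 and Egln3 at 29.8 ± 7.60. Hif1a at 27.4 ± 2.52, Egln2 at 19.3 ± 0.72, Vhl at 18.0 ± 1.42, Pdk1 at 7.83 ± 2.13 and Arnt at 7.02 ± 0.57 followed. Of the neighbours in this order only Hif1a over Egln2 and Vhl over Pdk1 had ranges that did not overlap across the 4 libraries. Epas1 over Egln1, Ndrg1 over Bnip3, Egln3 over Hif1a and Pdk1 over Arnt each held in 3 of 4 libraries, so their order was not settled by these cultures. At the ends of the scale, 90.4% of expressed genes were lower per length than Epas1 and 47.6% were lower than Arnt.

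**Figure D1:**
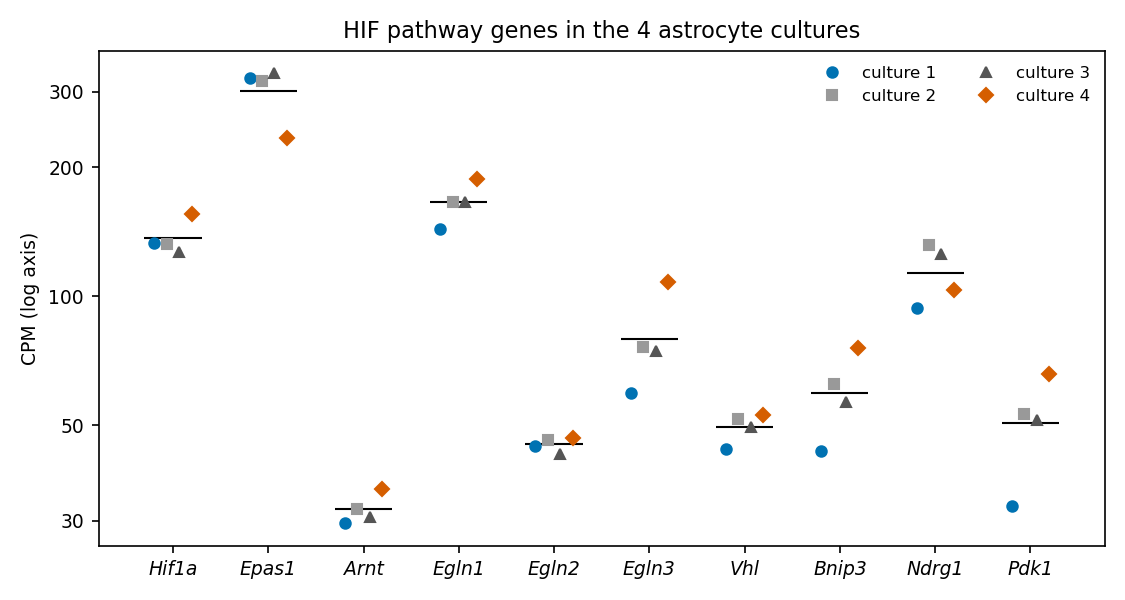
Level of each of the 10 HIF pathway genes in the 4 cultures, in CPM on a log axis; points are single libraries and the black lines are their means. Epas1 is lowest in culture 4, whereas Egln3, Bnip3 and Pdk1 are lowest in culture 1 and highest in culture 4.

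Epas1, encoding HIF-2 alpha, was the most abundant alpha subunit mRNA per length. Its gene (GeneID 13819) lies on the plus strand at chr17:86753864-86833410, and its level was 323, 318, 331 and 233 CPM in cultures 1 to 4. Cultures 1 to 3 were thus close together and culture 4 was below all of them. Hif1a (GeneID 15251, chr12:73901324-73947554, plus strand) was at 133, 132, 127 and 155 CPM, with culture 4 the highest. Within each library Epas1 exceeded Hif1a per length in 4 of 4 cultures, by 2.0-fold on average, from 1.38-fold in culture 4 to 2.39-fold (two-sided exact sign-flip permutation test, p = 0.125). That p is the smallest that 4 libraries can give, so none of the within-library ratios reported here can reach 0.05. Hif3a, the third alpha subunit gene, whose products can oppose the other two, was at 7.33, 8.01, 8.50 and 6.96 CPM, and per length Epas1 exceeded it 52.5-fold and Hif1a 26.2-fold, both in 4 of 4 libraries. Hif1a overlaps an antisense long non-coding RNA, Gm15283, which had 10 counts over the 4 libraries.

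Arnt (GeneID 11863, chr3:95434367-95497240, plus strand), the general partner subunit, was at 29.6, 31.9, 30.6 and 35.5 CPM. Culture 1 was lowest and culture 4 highest, over a range of 1.20-fold. Its paralogue Arnt2, best known as a partner subunit in neurons, was at 354, 352, 362 and 330 CPM. Per length Arnt2 exceeded Arnt 6.00-fold on average (5.07 to 6.54-fold, 4 of 4 libraries), and 11-fold when exon length was left out. The partner subunit mRNA of these cultures was therefore mostly Arnt2. Arntl, a clock gene of the same family, was at 27.9, 27.3, 27.0 and 36.8 CPM.

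Among the oxygen sensors, the order per length was Egln1 over Egln3 over Egln2 in every library. Egln1 (GeneID 112405, chr8:124908587-124949254, minus strand) encodes PHD2, regarded as the main HIF hydroxylase, and was at 144, 166, 166 and 188 CPM. Egln2 (GeneID 112406, chr7:27158658-27166802, minus strand), encoding PHD1, was at 44.8, 46.2, 42.9 and 46.7 CPM. Egln3 (GeneID 112407, chr12:54178981-54203874, minus strand), encoding PHD3 and strongly HIF-dependent in many cells, was at 59.6, 76.4, 74.6 and 108 CPM. Egln1 and Egln3 were lowest in culture 1 and highest in culture 4, with cultures 2 and 3 between, while the 4 Egln2 values lay within 1.09-fold. Within a library Egln1 exceeded Egln2 by 2.43-fold per length (2.13 to 2.67-fold, and 3.66-fold without exon length). It exceeded Egln3 by 1.61-fold (1.32 to 1.83-fold), and Egln3 exceeded Egln2 by 1.51-fold, from 1.16-fold in culture 1 to 2.02-fold in culture 4. A same-strand long non-coding RNA that overlaps Egln1, Gm46060, had 14 counts in total. Hif1an, the asparaginyl hydroxylase that blocks coactivator binding to the alpha subunit, was at 29.0, 28.5, 28.4 and 29.3 CPM, with a spread of 28.8 ± 0.44 (SD, n = 4).

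Vhl (GeneID 22346, chr6:113623994-113631634, plus strand), the substrate-recognition subunit of the ligase, was at 44.1, 51.6, 49.7 and 53.0 CPM, lowest in culture 1. The 8 other genes listed for its complex and the NEDD8 pathway that activates cullins were all expressed. The highest per length were Elob at 253 ± 7.60 RPKM, Nedd8 at 173 ± 4.09 RPKM and Rbx1 at 57.1 ± 1.99 RPKM (SD, n = 4). Of the 8, 0 were at least 1.5-fold away from the mean of the other libraries in culture 1 or in culture 4. In culture 1, 0.644% of 15217 genes with a mean of at least 1 CPM were lower by that fold and 0.151% higher. In culture 4 these shares were 5.74% and 2.39%, so 0 of 8 is near the share of all genes. The 21 listed regulators of HIF stability and coactivation were expressed too, led per length by Hsp90ab1 (788 RPKM), Hspa8 (487 RPKM) and Rack1 (411 RPKM), all of which have broad functions beyond HIF. Cited4, a coactivator-binding protein, was at 3.31, 2.54, 3.75 and 1.65 CPM.

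**Figure D2:**
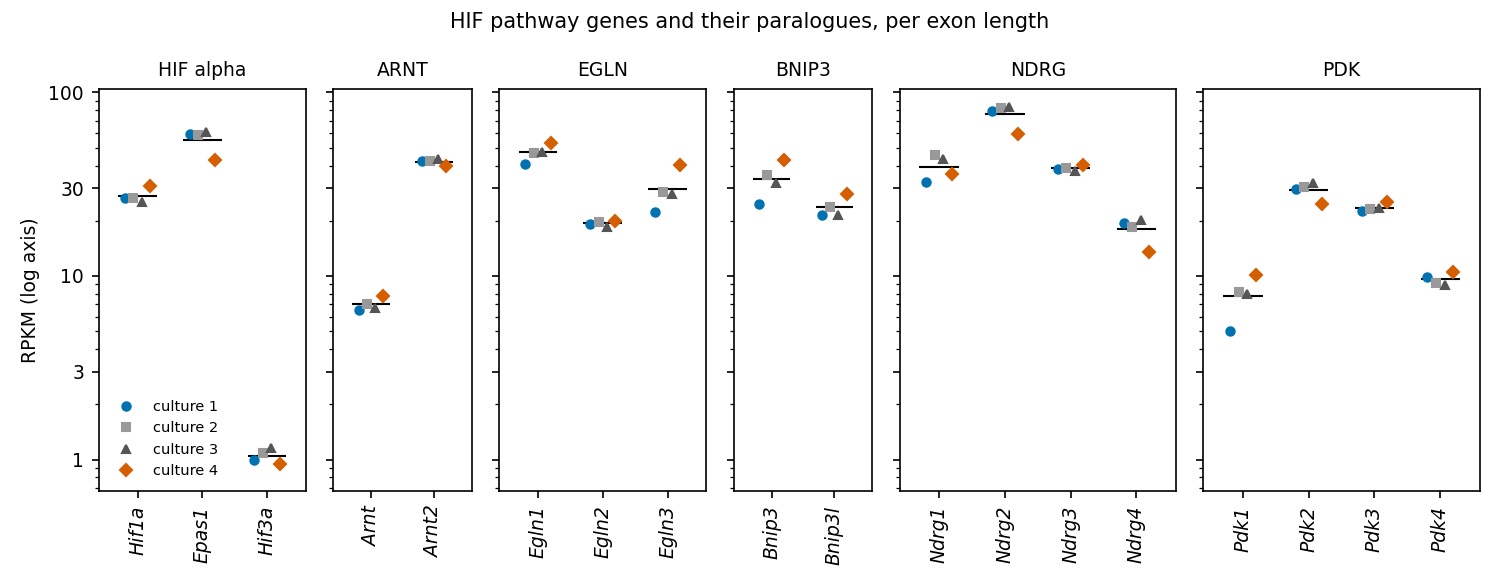
RPKM of the members and their paralogues in each gene family, on a log axis; points are the 4 libraries. Arnt2 lies above Arnt in all 4 libraries, Epas1 above Hif1a and both far above Hif3a, and Pdk2 above Pdk1.

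Bnip3 (GeneID 12176, chr7:138890836-138909506, minus strand) encodes a mitophagy receptor on the outer mitochondrial membrane. It was at 43.6, 62.3, 56.6 and 75.7 CPM, with culture 1 lowest and culture 4 highest. Its paralogue Bnip3l, which has the same role, was at 79.1, 88.1, 79.2 and 103 CPM. Per length Bnip3 exceeded Bnip3l by 1.41-fold in 4 of 4 libraries (1.16 to 1.54-fold), but without exon length the ratio was 0.672, so the direction rests on the length term.

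Ndrg1 (GeneID 17988, chr15:66929318-66969641, minus strand), a stress-responsive gene that is mutated in a demyelinating neuropathy, was at 94.0, 131, 125 and 103 CPM. Cultures 1 and 4 were both below cultures 2 and 3, so Ndrg1 was lowest in culture 1 but, unlike Egln3 and Bnip3, not highest in culture 4. Ndrg2, an astrocyte-enriched family member, was at 223, 230, 233 and 167 CPM and exceeded Ndrg1 by 1.93-fold per length in 4 of 4 libraries. Ndrg1 exceeded Ndrg4 by 2.19-fold in 4 of 4 libraries. Ndrg1 and Ndrg3 could not be ordered: the mean ratio was 1.01-fold, ran from 0.849 to 1.18-fold and was above 1 in 2 of 4 libraries (exact sign-flip permutation test, p = 1).

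Pdk1 (GeneID 228026, chr2:71873215-71903858, plus strand) encodes a kinase that switches off pyruvate dehydrogenase and so limits pyruvate entry into mitochondria. Its level was 32.4, 53.2, 51.6 and 65.8 CPM, the widest range of the 10 genes at 2.03-fold from culture 1 to culture 4. Pdk2 was at 77.4, 79.5, 83.5 and 64.4 CPM and exceeded Pdk1 by 3.84-fold per length, from 2.44-fold in culture 4 to 5.95-fold in culture 1 (1.54-fold without exon length). Pdk3 also exceeded Pdk1 per length in 4 of 4 libraries, by 3.10-fold, and Pdk4 did so by 1.27-fold, but both directions turned when exon length was left out (ratios of 0.984 and 0.674). In all, 14 within-library pairs were compared and 13 had 1 direction in 4 of 4 libraries, each at the smallest exact permutation p possible (0.135 after Benjamini-Hochberg adjustment over the 14), so no pair passes 0.05.

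Over all 4 libraries, the spread was widest for the 4 targets and Epas1. Measured by edgeR as the biological coefficient of variation (BCV) in a fit over 17105 genes, it was 0.206 for Pdk1, 0.177 for Egln3, 0.164 for Bnip3, 0.134 for Epas1 and 0.128 for Ndrg1. Those values lay above 98.9%, 98.2%, 97.7%, 95.5% and 94.8% of 6152 genes in the same range of CPM. Egln1 was at 0.092, Arnt at 0.083, Hif1a at 0.081, Vhl at 0.079 and Egln2 at 0.064, the last above 30.5% of genes. The median BCV of the 10 genes was 0.110, against 0.0697 for genes in their CPM range. These values depend on culture 4: without it the median BCV of the 10 genes was 0.038, and each of the 10 fell by more than 1.5-fold. The fall was not particular to the 10 genes. The common BCV fitted over all genes kept was 0.107 with culture 4 and 0.026 without it. Epas1 then had the lowest BCV of the 10, at 0.025, whereas Pdk1 at 0.101, Bnip3 at 0.070, Ndrg1 at 0.069 and Egln3 at 0.054 were the highest. Without culture 1, Pdk1 was at 0.108.

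Because culture 4 stood apart over the whole transcriptome, culture 1 was compared with cultures 2 and 3 alone as well as with all other cultures. Against the mean of the other 3, Pdk1 was 1.5-fold or more lower in culture 1 (1 of 10 genes), where 0.644% of 15217 genes with a mean of at least 1 CPM were. With culture 4 left out, Pdk1 was again the only one of the 10 (log2 difference -0.69), against 0.309% of all genes. A smaller cutoff, chosen after these values were seen, asked that cultures 2 and 3 be on average at least 25% above culture 1 (log2 difference of -0.32 or lower). It was passed by 4 of 10 genes, Pdk1, Ndrg1 (-0.45), Bnip3 (-0.45) and Egln3 (-0.34), and by 1.66% of all genes. These 4 are the commonly used targets among the 10. Egln1 was at -0.21 and Vhl at -0.20 on the same log2 scale. The remaining genes were near the other cultures, with Arnt at -0.08, Epas1 at -0.01, Egln2 at 0.01 and Hif1a at 0.04. The median over the 10 genes was -0.20, and the median over all 15217 genes was -0.0033. With 1 library against 2 there is no test, and no label sets culture 1 apart.

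**Figure D3:**
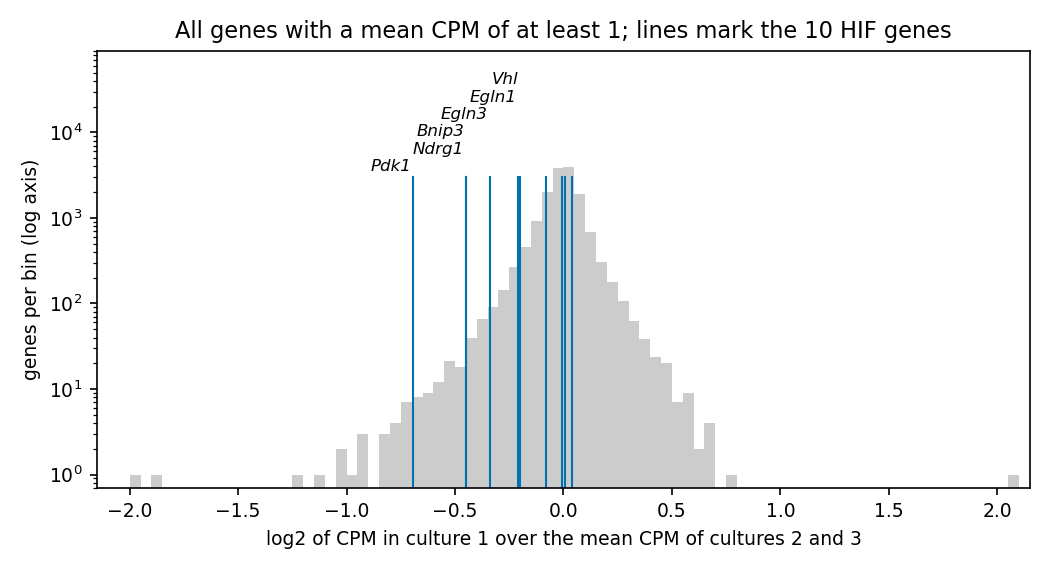
Distribution over 15217 genes of the log2 ratio of CPM in culture 1 to the mean CPM of cultures 2 and 3, with the number of genes per bin on a log axis and values beyond the axis gathered in the outermost bins; vertical lines are the 10 HIF pathway genes. Pdk1, Ndrg1, Bnip3 and Egln3 lie in the sparse left tail, and Hif1a, Epas1 and Egln2 lie at the centre.

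Some of the other known HIF targets, from 3 lists with 68 genes found and 64 expressed, were also low in culture 1. Slc16a3, the lactate exporter MCT4, was at 2.41, 10.0, 8.90 and 24.4 CPM, so culture 4 was 10.1-fold above culture 1. Ero1a, an oxidase for disulfide formation in the endoplasmic reticulum, was at 29.4, 51.1, 48.5 and 59.1 CPM. Vegfa, the vascular growth factor, was at 150, 229, 210 and 245 CPM. In each of these the lowest library was culture 1 and the highest was culture 4, with cultures 2 and 3 close together between them. Pfkl, a phosphofructokinase of glycolysis, was at 96.8, 139, 129 and 166 CPM. Pfkp, another phosphofructokinase of the same list, was at 360, 376, 379 and 304 CPM, lowest in culture 4. Slc2a1, the glucose transporter GLUT1, was at 93.3, 106, 104 and 121 CPM. Car9, a carbonic anhydrase that is among the most HIF-specific targets, was at 5.91, 11.6, 10.8 and 9.37 CPM, low in culture 1 but not highest in culture 4. Stc2, encoding the secreted glycoprotein stanniocalcin 2, was at 2.43 CPM in culture 1 and at 4.71, 4.88 and 4.70 CPM in the others. Epo had 3, 6, 10 and 10 counts in cultures 1 to 4, 29 in total, or 0.073 to 0.268 CPM. Culture 1 was thus at the level of 3 counts, which is 0.0708 to 0.0804 CPM, and the others were above it.

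Over these 64 targets, the median log2 difference of culture 1 from cultures 2 and 3 was -0.12. Past the cutoff of -0.32 were 13 of 64, against 1.66% of all 15217 genes. At least 1.5-fold lower were 4 of 64, against 0.309% of all genes. The median was -0.15 for 22 genes of glucose metabolism, -0.10 for 24 genes of mitochondria, stress and feedback, and -0.093 for 19 genes of signalling and matrix. Not every pathway gene was lower: Cited2, a HIF target that competes with HIF for its coactivators, was at 53.4 CPM in culture 1 and at 44.4, 44.1 and 44.7 CPM in the others. Igfbp3 and Hmox1, the highest per length on the signalling and matrix list, had log2 differences of 0.03 and -0.06 from cultures 2 and 3. Markers of cell types were read on the same scale, and their medians were -0.016 for astrocyte, -0.065 for microglia, -0.028 for endothelial (2 genes), 0.013 for mural, -0.009 for fibroblast, -0.056 for oligodendrocyte lineage, 0.014 for neuron and -0.028 for ependymal markers (2 genes). Past the cutoff of -0.32 were 2 of 9 microglia markers and 0 markers of the other lists, where 1.66% of all genes were. The 2 were Cx3cr1 at 13.5, 16.7, 17.5 and 10.4 CPM and Aif1 at 1.87, 2.22, 2.47 and 1.37 CPM. Proliferation markers were at 0.006 and 7 stress-response genes at 0.029; 1 of these, Hmox1, is on a HIF target list as well. Summed levels in cultures 1, 2 and 3 were 7483, 7629 and 7450 CPM for astrocyte, 203, 207 and 213 CPM for microglia and 1368, 1334 and 1420 CPM for fibroblast markers. The part of cell makeup in the culture 1 values was not tested.

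Culture 4 gave a mixed picture in the 10 genes. Against the mean of the other 3 cultures, Egln3 was 1.54-fold higher and was the 1 gene of 10 past 1.5-fold upward, where 2.39% of all 15217 genes were. Pdk1 followed at a log2 difference of 0.53 and Bnip3 at 0.48. Smaller differences were seen for Hif1a at 0.25, Egln1 at 0.24, Arnt at 0.21, Vhl at 0.13 and Egln2 at 0.07. Ndrg1 at -0.18 and Epas1 at -0.47 were lower in culture 4. None of the 10 (0 of 10) was 1.5-fold or more lower, where 5.74% of all genes were. The median over the 10 was 0.23 and over all genes 0.033. Of the 64 other HIF targets, 4 were at least 1.5-fold lower in culture 4 and 2 were at least 1.5-fold higher. Both counts were near the shares of all genes, 5.74% and 2.39%. The 2 higher were Slc16a3 and Car12 (7.30, 10.1, 9.73 and 17.0 CPM). The 4 lower were Bhlhe41 (61.1, 60.3, 65.2 and 38.0 CPM), Cxcl12 (12.4, 10.9, 11.2 and 4.39 CPM), Lox and Flt1. Lox and Flt1 are also products of matrix-rich or vascular cells. Lox, a collagen crosslinking enzyme, was at 40.4, 43.5, 39.3 and 10.1 CPM. Flt1, a VEGF receptor of endothelium, was at 6.46, 6.58, 6.06 and 1.53 CPM. In culture 4, 3 of 4 expressed fibroblast markers were at least 1.5-fold lower and the remaining 1 was at least 1.5-fold higher. Of 9 microglia markers, 6 were at least 1.5-fold lower. All 8 of 8 proliferation markers were higher than the mean of the others, with a median log2 difference of 0.36 against 0.033 over all genes. None (0 of 8) was at least 1.5-fold higher, where 2.39% of all genes were. The share of all genes merely above that mean is not given here. The part of these shifts in the HIF gene values of culture 4 was not tested.

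**Figure D4:**
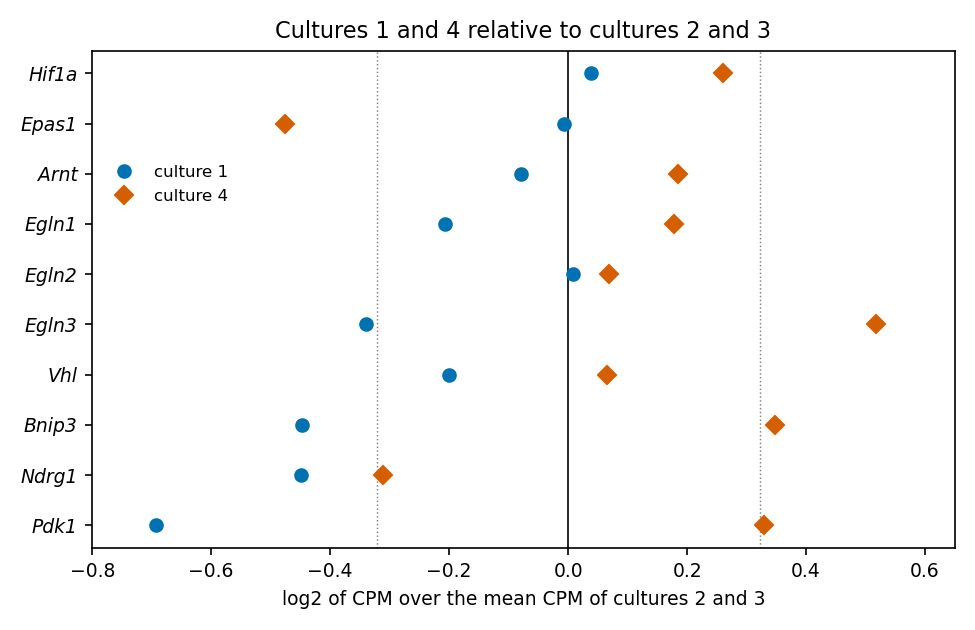
Log2 of CPM in culture 1 (circles) and culture 4 (diamonds) over the mean CPM of cultures 2 and 3 for the 10 genes; dotted lines mark 0.32 on either side, and both series share cultures 2 and 3 as reference. Pdk1, Bnip3 and Egln3 lie left of the lower line in culture 1 and right of the upper line in culture 4, Ndrg1 is low in both, and Epas1 is low in culture 4 alone.

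Being lowest in culture 1 and highest in culture 4 was a pattern noticed after the values were seen. It was shown by 6 of the 10 genes, Arnt, Egln1, Egln3, Vhl, Bnip3 and Pdk1, and by 14.8% of all 15217 genes. Of the other HIF targets, 37 of 64 (57.8%) had it, made up of 16 of 22 genes of glucose metabolism, 17 of 24 of mitochondria, stress and feedback, and 4 of 19 of signalling and matrix (Pfkfb3 is on both of the first lists). The glucose group included Slc2a1, Gpi1, Aldoa, Tpi1, Pgk1, Eno1, Ldha and Slc16a3, which run from glucose entry to lactate export. Hk2, Pfkp, Pfkfb3, Pfkfb4, Pgm1 and Pgm2 of the glucose list did not have the pattern. With TMM scaling 12.4% of all genes, 6 of the 10 and 54.7% of the other targets had the pattern. With DESeq2 size factors these were 11.7%, 6 of the 10 and 51.6%. When culture 1 also had to be 1.1-fold below and culture 4 1.1-fold above both other cultures, 1.06% of all genes kept it, as did Egln1, Egln3, Bnip3 and Pdk1 and 17.2% of the other targets. The VHL complex (0 of 8) and the other HIF subunits Hif3a, Arnt2 and Arntl (0 of 3) did not show it. Other lists had it in part: 3 of 8 proliferation markers, 5 of 21 other HIF regulators, 2 of 10 astrocyte markers and 2 of 7 paralogues. Of these genes, Aldoc and Bnip3l are also listed HIF targets. The count was 0 for stress-response genes and for microglia, endothelial, mural, fibroblast, oligodendrocyte lineage, neuron and ependymal markers. In lists this short, 0 is near the 14.8% share of all genes and does not set the lists at 0 apart.

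**Figure D5:**
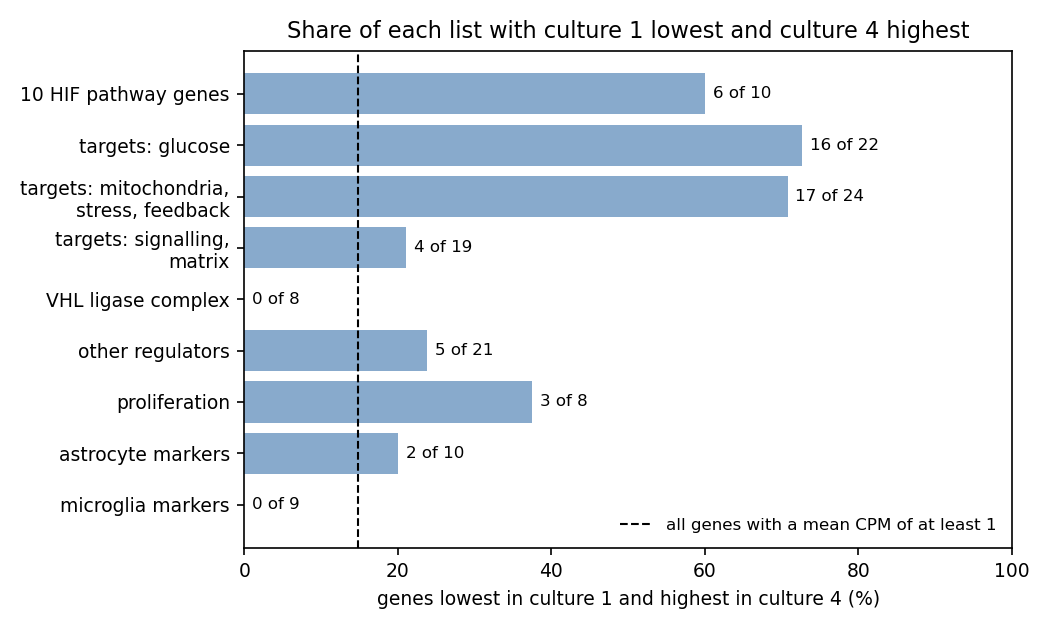
Share of each gene list that was lowest in culture 1 and highest in culture 4, in percent of its genes with a mean of at least 1 CPM; the dashed line is the share over all such genes, 14.8%. The glucose metabolism (72.7%) and mitochondria, stress and feedback (70.8%) targets lie far right of the line, the signalling and matrix targets (21.1%) close to it.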

How the data were processed

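Poly-A RNA of 4 cultures in 1 group was analysed. The deposited table holds estimated counts per gene, with coordinates and combined exon length; 31.7% of values above 0 are not whole, among them those of 6 of the 10 genes. Per the submitters' processing notes, the tools were STAR 2.7.2b, featureCounts 1.6.4, cutadapt 1.17 and bcl2fastq 2.20.0.422, with build GRCm38.p6; the sources used here do not give how strand and shared reads were handled. Libraries were stranded, per the labels' protocols, from 500 ng of RNA with 14 PCR cycles and RIN above 9.3.

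CPM was computed from raw library totals and RPKM from CPM and exon length. Tests and spreads were run in Python 3.11.15 with scipy 1.17.1 and in R 4.3.3 with edgeR 4.0.16 (counts rounded, TMM, filterByExpr) and were tested on simulated data. DESeq2 1.42.0 gave alternative scalings. Paralogue ratios were taken within a library and tested with a two-sided exact sign-flip permutation test. A culture was called deviating at 1.5-fold from the mean of the other 3 over genes averaging 1 CPM or more. Named genes were the 10 genes, their paralogues, the 3 highest per length of each other pathway list, those past 1.5-fold in a culture, and Epo, Vegfa, Slc2a1 and Hif1an. Cited2, Pfkl, Pfkp, Pfkfb3, Pfkfb4, Gpi1, Hk2, Ldha, Pgk1, Pgm1, Pgm2, Gfap, Cx3cr1 and Aif1 were chosen after their values were seen. So were the genes of the closing observations outside this rule. Cores searched were ACGTG and GCGTG on both strands, which overlap CACGTG. One listed gene is not reported here. The 10 genes and the lists were chosen with earlier results of these data known. Alternatives were other lengths, scalings, filters and folds, a pseudocount, and leaving out each culture.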

Additional observations from a re-analysis of the deposited data

Results flagged for a closer look

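In each of 58 named genes, the gap between the highest or lowest culture and its nearest neighbour was divided by the range of the 4 cultures, and 12 genes had a ratio above Dixon's critical value at the 95% level. Chance flags about 1 group in 20, and some of these genes were named because a culture deviated, 10 of them chosen after their values were seen. Of the 10 HIF pathway genes 1 was among them, Epas1, whose culture 4 value (233 CPM against 318 to 331 CPM) had a ratio of 0.865. In culture 4 the ratio was also high for low values of Ndrg2 (0.843), Igfbp3 (0.874), Lox (0.874), Flt1 (0.896) and Gfap (0.927), and for high values of Arntl (0.906), Rbx1 (0.913) and Hsp90ab1 (0.931). In culture 1 the ratio was high for low values of Stc2 (0.925) and Ntsr2 (0.891) and for the high value of Cited2 (0.932). Of the 12 genes 9 concerned culture 4, the library that differed most over the whole table. The share of all genes with such a ratio is not given here, so these counts cannot be set against it.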

How the results depend on the processing

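No paired analysis was possible because the study has 1 group. On the log2 scale, leaving out exon length turned Bnip3 over Bnip3l to -0.57, Pdk3 over Pdk1 to -0.024, Pdk4 over Pdk1 to -0.57 and Ndrg1 over Ndrg3 to -0.25; the last was -0.40 with GENCODE lengths and -0.068 to 0.089 leaving out 1 culture in turn. Each other pair kept its direction under the settings run. The median BCV ranged from 0.038 (without culture 4) to 0.121 (without culture 3). At 2-fold, 0 of the 10 genes were lower in culture 1 (0.204% of all genes) and 0 higher in culture 4 (0.598%). With the fold lowered to 0.32 on the log2 scale these were 4 (2.69% of all genes) and 3 (10.1%), and 1 (Epas1) was lower in culture 4 (12.2%, so near the share of all genes). Leaving out 1 culture gave 1 to 3 genes lower in culture 1 (3 without culture 2 or 3, where 1.01% and 1.04% of all genes were, and 1 without culture 4, 0.309%). It gave 0 to 3 higher in culture 4 (0 without culture 1, 3 without culture 2 and 2 without culture 3, with 2.46%, 2.58% and 2.46% of all genes). The setting itself moves these counts, since it changes the reference or the fold. TMM and DESeq2 size factors changed none of these member counts. Lengths from RefSeq coding sequence were not run. With 4 libraries of 1 group, no difference between cultures has a test, and depth limits only genes with few counts, such as Epo.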

Other observations

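Among 10730 genes with a mean of at least 10 CPM, ordered by the log2 ratio of culture 1 to the mean of cultures 2 and 3, the lowest 20 held 3 of the 10 HIF pathway genes and 7 other listed HIF targets, and the lowest 40 held 4 and 10; in all, 55 listed targets were ranked. Slc16a3 was lowest at -1.97, followed by Ero1a at -0.76 and Pdk1 at -0.69. Vegfa was seventh in order at -0.56, Pfkl eighth at -0.47, and Ndrg1, Bnip3 and Car12 stood at ranks 11, 12 and 13. Egln3 was at rank 23, Egln1 at 82 and Vhl at 97, while Arnt, Epas1, Egln2 and Hif1a were at 1201, 4875, 6041 and 8224. This order was set up after the culture 1 values had been seen and is given as a description.

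Some of the genes between the listed targets are in none of the lists. Selenbp1, encoding a selenium-binding protein, was at 7.40, 11.8, 11.6 and 17.7 CPM in cultures 1 to 4, and Fgf11, of the intracellular fibroblast growth factor homologues, at 8.40, 12.9, 12.5 and 21.5 CPM. Both were lowest in culture 1 and highest in culture 4. Ntsr2, an astrocyte-enriched neurotensin receptor, was at 12.9, 20, 19.2 and 20 CPM, and Ephx2, an epoxide hydrolase, at 17.2, 24.2, 22.8 and 20.6 CPM, low in culture 1 without being clearly highest in culture 4. Gpi1, a glycolytic isomerase, was at 763, 1001, 975.4 and 1128 CPM; a processed copy listed as Gpi-ps can share its reads, so the split between them is uncertain.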
